A study of Homo sapiens with 16 samples.

Results

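The 37 promoters described here belong to genes of the B cell receptor, of its signalling chain and of other surface molecules of B cells. They were chosen by gene name from the 21857 promoters of the tables, and each gene had 1 promoter. Surface molecules made up 16 of them (CD79A, CD79B, CD22, CD72, CR1, CR2, CD81, MS4A1, FCER2, CD37, CD53, CD38, CD80, CD86, CD83 and ICOSLG). Kinases, adaptors and other carriers of the signal made up 15 (LYN, BLK, SYK, BTK, BLNK, BANK1, PLCG2, PRKCB, PIK3CD, PIK3AP1, VAV1, VAV2, DAPP1, BCL10 and MALT1), 4 phosphatases (PTPRC, PTPN6, PTPN22 and INPP5D) and LAPTM5 were put in 1 class as negative regulators, although PTPRC also activates Src-family kinases, and the transcription factor RUNX3 was the last. MNase-digested nucleosomal DNA from GM12878 cells was enriched for promoters and sequenced. Cells were left untreated or were stimulated with HKST (heat-killed Salmonella typhimurium) for 20, 40 or 60 min, and nuclei of every time point were digested with 20 U (light) or 200 U (heavy) of MNase. GM12878 is 1 human B-lymphoblastoid line, transformed with Epstein-Barr virus, so that every group carries the virus and comes from the same donor. There were 16 samples, 2 for each time point and digest, but the authors' 8 tables each pool both replicates, so that each group gives 1 value with no replicate error. Titles of replicate 1 and names of the pooled tables carry the label NOHDI, which titles of replicate 2 lack, and the labels do not explain it.

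A table holds fragment centers per 1000000 fragments (rpm) at 10 bp steps from -1000 to 1000 bp of the TSS. Positions without a value, 9.90% to 10.8% per table, were left out of means and counts. Because the values rise in whole steps, the fragment number behind each one could be recovered. With M for 1000000, the light tables rest on 9.43 to 10.5 M fragments and the heavy tables on 5.12 M (untreated), 4.12 M (20 min), 3.27 M (40 min) and 7.04 M (60 min). The untreated heavy table and both 20 min tables end early as received, so that 32 of the 37 promoters could be followed in the untreated, 40 and 60 min tables and 12 in all 8. CD22, BTK, VAV1, INPP5D and BCL10 had only the 40 and 60 min pairs. Sensitivity was the log2 ratio of light over heavy after 0.119 rpm was added to both. A ratio above 0 thus means relatively more fragments in the light digest (sensitive to MNase, MSFs), and one below 0 relatively more in the heavy digest (resistant, MRFs). Values in parentheses after a ratio or a change are 95% exact intervals of the fragment numbers without that addition. They cover counting error only, and time of HKST cannot be told apart from how far each tube was digested.

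The B cell receptor is a surface immunoglobulin bound to the signalling chains CD79A and CD79B. Once it is engaged, Src-family kinases such as LYN and BLK phosphorylate these chains and SYK is recruited, and scaffolds such as BLNK gather BTK, PLCG2 and VAV1 into a complex that raises calcium, activates PRKCB and, through BCL10 and MALT1, turns on NF-kB. Inhibitory coreceptors (CD22, CD72) and phosphatases (PTPN6, INPP5D) dampen the signal, and tetraspanins (CD81, CD37, CD53) and complement receptors (CR1, CR2) surround the receptor in the membrane. Promoters of B cell genes are often bound by PU.1, EBF1, E-proteins, RUNX factors and the octamer factors.

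The sequences just upstream of the TSS differed widely among these promoters, and 6 are shown. The light and heavy fragments of PTPRC, BANK1, PTPN22, DAPP1 and SYK are described below. RUNX3 is shown as a GC-rich promoter with no fragments in the part of the stretch that had values, and 10 of its 10 bp positions had none. They run from -200 to -1 bp on the gene's strand in GRCh37, the same assembly as the hg19 of the tables, except that PTPRC starts at -181 bp. Capitals mark matches, on either strand, to AGGAAGT (PU.1), ATGCAAAT (octamer), TGTGGT (RUNX), CAGGTG (E-box) or GGGCGG (GC box). None of these motifs contains another.
PTPRC (chr1:198607917-198608097, + strand): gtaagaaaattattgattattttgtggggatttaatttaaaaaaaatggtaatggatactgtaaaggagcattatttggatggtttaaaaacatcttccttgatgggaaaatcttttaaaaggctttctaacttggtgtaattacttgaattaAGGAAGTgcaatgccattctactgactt
BANK1 (chr4:102711564-102711763, + strand): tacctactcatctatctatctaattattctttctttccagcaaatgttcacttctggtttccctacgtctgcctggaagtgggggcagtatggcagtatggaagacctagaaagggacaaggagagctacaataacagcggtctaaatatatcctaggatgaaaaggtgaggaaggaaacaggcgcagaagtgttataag
PTPN22 (chr1:114414376-114414575, - strand): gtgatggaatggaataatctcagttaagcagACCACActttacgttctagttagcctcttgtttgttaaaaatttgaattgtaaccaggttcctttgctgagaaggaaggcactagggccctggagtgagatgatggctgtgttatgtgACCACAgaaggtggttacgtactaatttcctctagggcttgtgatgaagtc
DAPP1 (chr4:100737781-100737980, + strand): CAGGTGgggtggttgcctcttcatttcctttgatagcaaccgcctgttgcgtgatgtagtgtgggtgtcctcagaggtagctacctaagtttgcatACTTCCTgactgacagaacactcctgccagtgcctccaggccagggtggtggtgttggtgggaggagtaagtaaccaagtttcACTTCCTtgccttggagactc
SYK (chr9:93563812-93564011, + strand): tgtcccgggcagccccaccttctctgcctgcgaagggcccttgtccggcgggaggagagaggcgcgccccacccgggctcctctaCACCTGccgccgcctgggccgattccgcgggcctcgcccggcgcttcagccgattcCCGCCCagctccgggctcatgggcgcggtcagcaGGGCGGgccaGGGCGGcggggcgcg
RUNX3 (chr1:25256771-25256970, - strand): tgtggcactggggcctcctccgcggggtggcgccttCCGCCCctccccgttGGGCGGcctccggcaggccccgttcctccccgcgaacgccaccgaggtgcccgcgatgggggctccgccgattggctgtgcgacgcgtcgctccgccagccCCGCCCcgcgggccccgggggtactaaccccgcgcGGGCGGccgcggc

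GC content of this stretch was 29.5% at PTPRC, the lowest of the 37, 43% at BANK1 and PTPN22, 53% at DAPP1, 77.5% at SYK and 80.5% at RUNX3. BANK1 held none of the 5 motifs. DAPP1 held 2 PU.1 matches, at -104 and -21 bp, PTPRC 1 at -28 bp, and PTPN22 2 RUNX matches, at -169 and -51 bp. RUNX3 and SYK held 4 and 3 GC boxes. Of the 37 TSSs, 30 lay within 50 bp of a transcript start of GENCODE, against 79.9% of all promoters. Antisense genes cover the TSS of PTPN22 (AP4B1-AS1), CD81 (CD81-AS1), BCL10 (BCL10-AS1) and MALT1 (MALT1-AS1), and fragments of double-stranded DNA carry no strand. In hg19 the TSS lies at position 198608098 of chromosome 1 for PTPRC, 102711764 of chromosome 4 for BANK1, 114414375 of chromosome 1 for PTPN22, 100737981 of chromosome 4 for DAPP1, 111413821 of chromosome 1 for CD53 and 2398547 of chromosome 11 for CD81.

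PU.1 letters were found between -200 and -1 bp at 7 promoters (CD37, LYN, BLNK, DAPP1, PTPRC, INPP5D and LAPTM5), which is 18.9% of the 37, against 5.32% of all promoters. The octamer was found at 5 (CD79B, CR1, CD53, LYN and PRKCB), which is 13.5%, against 1.24%, and the E-box at 13, or 35.1%, against 15.0%. RUNX letters occurred at 4 promoters, or 10.8% (8.13% of all promoters), and a palindromic EBF1 motif at PTPN6 alone, or 2.70% (0.892%). GC boxes occurred at 17, or 45.9% (46.0%). No member held TATAAA, which 7.91% of all promoters held, or a NF-kB motif, which 0.325% held. Both strands were searched throughout, and a match describes the letters only.

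In untreated cells, the -1 ratio of these promoters was above 0 more often than that of promoters in general, among those with enough fragments. The -1 nucleosome was read from -200 to 0 bp, the window that the paper used for it. In untreated cells the highest mean upstream signal of these promoters lay outside this window. It was at -210 bp in the AT-richer and -390 bp in the GC-richer class, described below. The lowest mean signal lay inside the window, at -70 and -10 bp. A -1 ratio is thus that of the window, which includes depleted positions, and not of a placed nucleosome. Of the 32 promoters, 21 had at least 10 fragments in the window, light and heavy together. Their median log2 ratio was 0.38, against 0.13 over the 10987 promoters of the tables that met the same minimum. It was above 0 at 15 of the 21, against 56.1% of all. The other 11 promoters (CD81, MS4A1, FCER2, CD83, ICOSLG, BLNK, PLCG2, PRKCB, PIK3AP1, VAV2 and RUNX3) had 0 to 8 fragments in the window, and RUNX3, VAV2, PRKCB and ICOSLG had none. At those 4, the count of 0 allows up to 3 fragments per table in the positions with a value. Positions of the window without a value numbered 10 at RUNX3, 8 at CD81, 7 at FCER2, 5 at BLNK, 3 at MS4A1 and 1 at VAV2. Around each promoter's highest upstream signal, described below, the untreated ratio was above 0 at 19 of 31 promoters, against 56.4% of all. By role it was above 0 at 7 of 15 surface molecules, 9 of 11 signalling genes and 3 of 4 phosphatases and LAPTM5.

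The tetraspanin CD53 had the highest untreated ratio, with 49 light and 8 heavy fragments and a log2 ratio of 1.53 (0.60 to 2.98). CD86, a costimulatory ligand of CD28, followed with 11 light and 1 heavy fragments (1.21, -0.25 to 7.96) and PTPRC, the phosphatase CD45, with 14 and 3 (0.96, -0.54 to 3.74). The intervals of these 3 overlap, and only that of CD53 excludes 0. At the other end were the protease MALT1, with 10 light and 10 heavy fragments (-0.77, -2.35 to 0.50), the kinase SYK, with 5 and 5 (-0.75, -3.04 to 1.19), and the complement receptor CR2, with 17 and 14 (-0.58, -1.75 to 0.49). None of these 3 lay on the heavy side beyond its counting error.

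At 60 min of HKST, more of the 32 promoters had a higher -1 ratio than a lower one. The change from untreated was above 0 at 22, below 0 at 7 and exactly 0 at the 3 without fragments (PRKCB, VAV2 and RUNX3), against 51.4% above and 42.7% below 0 over the 16233 promoters with a value. The median change was 0.23, against 0.026 over all promoters. Light fragments of the 32 promoters, summed, came to 85.5 per M at 60 min (79.9 to 91.4, exact Poisson interval), against 77.9 in untreated cells (72.4 to 83.6), and heavy fragments to 48.0 (43.0 to 53.4), against 58.8 (52.4 to 65.9). The ratio of these sums was higher by 0.43 on the log2 scale (0.16 to 0.70), against 0.059 over all promoters. With each promoter left out in turn it ranged between 0.37 (without BANK1) and 0.52 (without CD53). The heavy table is deeper at 60 min than in untreated cells, and the part of depth in this change was not tested.

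With at least 10 fragments in both conditions, 19 promoters remained at 60 min, with a median change of 0.33, against 0.031 over 10674 promoters. A log2 change of 1 or more was taken as a call. PTPN22, BANK1 and DAPP1 were called higher and CD53 was called lower, where 8.45% of all promoters were called higher and 4.79% lower. By the second rule, a counting interval without 0, DAPP1 alone was higher and none lower, where 2.71% of all promoters were higher and 2.81% lower. A count of 1 in 19 is near that background.

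At 40 min the median and the sum were nearer to 0 than at 60 min, with as many calls. The change was above 0 at 19 of the 32 promoters and below 0 at 11, against 52.9% and 41.0% of all promoters, and its median was 0.086, against 0.051. The summed ratio was higher by 0.26, with an interval that includes 0 (-0.055 to 0.58). Sums over all promoters moved in the same direction. Their light fragments came to 39816 per M, against 39616 in untreated cells, and heavy ones to 39036, against 40018. Of the 19 promoters with 10 fragments, BLK, BANK1 and SYK were called higher and CD53 lower, where 10.5% and 5.9% of all promoters were called. The interval excluded 0 at BLK and BANK1, both higher, where 2.14% of all promoters were higher and 1.96% lower.

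**Figure D1:**
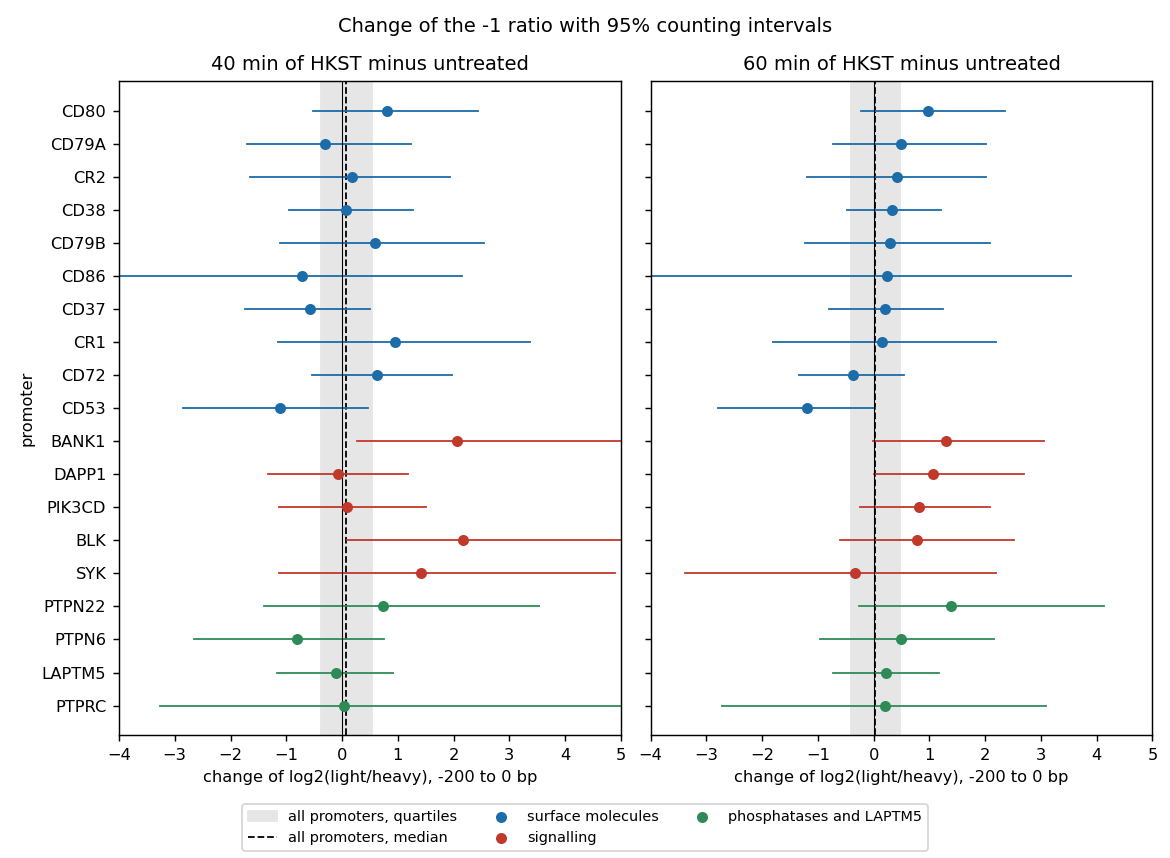
Change of the log2 ratio of light over heavy (x axis) from -200 to 0 bp at 40 min (left) and 60 min (right) against untreated, for the 19 promoters (y axis, grouped by role) with at least 10 fragments in both conditions. Points are promoters, lines 95% counting intervals (some run past the axis), grey the quartiles and the dashed line the median of all promoters. At 60 min 16 of the 19 points lie right of 0, and most intervals cross 0.

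BANK1, a scaffold that links Src-family kinases to the calcium channel of internal stores, was called higher at both times. Between -200 and 0 bp 33 light and 11 heavy fragments were counted without HKST, 56 and 2 after 40 min, and 65 and 10 after 60 min. Both HKST tables thus had more light fragments than the untreated one, and fewer heavy ones per M. Log2 ratios were 0.58 without HKST, 2.65 after 40 min and 1.88 after 60 min. The change was 2.06 after 40 min (0.27 to 5.89) and 1.30 after 60 min, where its interval just includes 0 (-0.018 to 3.06). Both changes are against the same untreated tables.

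BLK, a Src-family kinase of B cells, had 27 light and 14 heavy fragments without HKST, 24 and 1 after 40 min, and 28 and 10 after 60 min. The light fragments were nearly the same in the 3 tables, and the single heavy fragment at 40 min made the difference. Ratios were 0.053 without HKST, 2.23 after 40 min and 0.83 after 60 min, with changes of 2.17 (0.085 to 8.50) and 0.77 (-0.60 to 2.52). With 1 heavy fragment in the shallowest table, the size of the 40 min change is poorly bounded.

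DAPP1, an adaptor that binds the lipid products of PI3-kinase, was called at 60 min only. It had 66 light and 18 heavy fragments without HKST, 68 and 13 after 40 min, and 69 and 10 after 60 min. The ratio was 0.88, 0.80 and 1.95 at these times, and the 60 min change was 1.07 (0.0022 to 2.70), with a lower bound next to 0. PTPN22, a tyrosine phosphatase that restrains antigen receptor signalling, was present in all 8 tables, with 27 light and 8 heavy fragments without HKST, 29 and 2 after 20 min, 28 and 3 after 40 min, and 36 and 4 after 60 min. Its ratio was 0.74 in untreated cells, then 1.77, 1.47 and 2.13. All 3 HKST values lay above the untreated one, by 1.03 (-0.84 to 5.05), 0.73 (-1.40 to 3.54) and 1.39 (-0.27 to 4.13), but each interval includes 0.

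CD53 was called lower at 40 and 60 min. It had 49 light and 8 heavy fragments without HKST, 41 and 7 after 20 min, 41 and 10 after 40 min, and 52 and 28 after 60 min. Light fragments differed little between the tables, and the heavy ones were most numerous at 60 min, in the deepest heavy table (7.04 M, against 5.12 M in untreated cells). The ratio was 1.53 in untreated cells, then 1.02, 0.42 and 0.33, and the change was -0.51 after 20 min (-2.27 to 1.34), -1.11 after 40 min (-2.86 to 0.46) and -1.20 after 60 min (-2.78 to 0.034). These calls end with a larger pseudocount of 0.5 of the mean value (-0.72 at 40 min and -0.77 at 60 min), and over 2 kb the change at 60 min was 0.051, of the opposite sign. With that pseudocount the calls of higher promoters against untreated end as well, except BANK1 at 40 min (1.22). At 60 min BANK1 was at 0.91, PTPN22 at 0.70 and DAPP1 at 0.67. CR1 had 10 light and 8 heavy fragments without HKST, 28 and 5 after 20 min, 20 and 5 after 40 min, and 13 and 12 after 60 min. Its ratio was -0.48 in untreated cells, then 1.08, 0.47 and -0.32. CR1 was highest at 20 min, a change of 1.56 (-0.44 to 3.99), and at 60 min the change was 0.16 (-1.81 to 2.19).

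**Figure D2:**
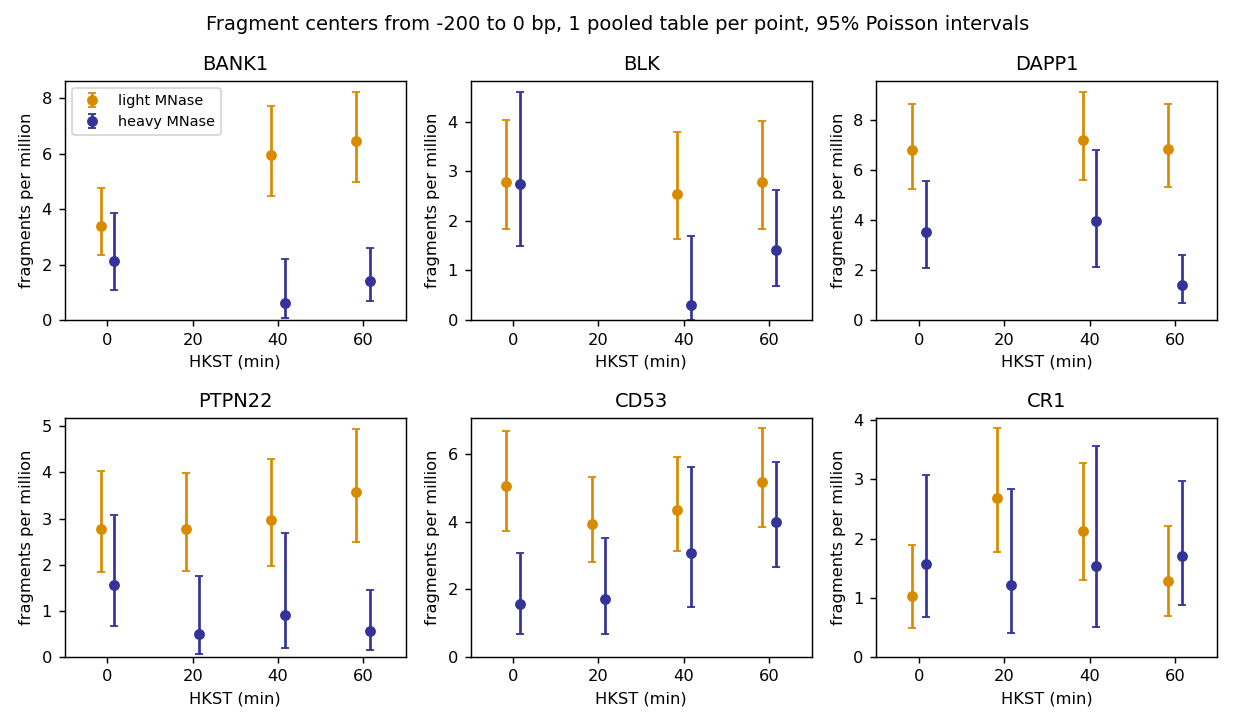
Fragment centers from -200 to 0 bp per 1000000 fragments of the table (y axis) at each time of HKST (x axis, 0 is untreated), light MNase in orange and heavy MNase in blue, for 6 promoters. Points are single pooled tables and bars 95% Poisson intervals, and BANK1, BLK and DAPP1 have no 20 min value. Heavy fragments are fewer at BANK1 and PTPN22 after HKST and more numerous at CD53. There 28 were counted at 60 min, in a table of 7.04 M fragments, against 8 in untreated cells, in a table of 5.12 M.

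At 20 min 12 promoters could be compared, and 7 had at least 10 fragments in both conditions. The change was above 0 at 6 of the 12 and below 0 at 5, with a median of 0.22 over the 12. Over the 7 the median was 0.44, against 0.088 over 1878 promoters, but it was -0.11 over the 5 with at least 20 fragments. Of the 7, CR1 and PTPN22 were called higher and none lower, where 11.6% of all promoters were called higher and 6.12% lower. No counting interval excluded 0, where 2.56% of all promoters were higher and 2.5% lower by that rule. The summed ratio over the 12 was higher by 0.22, with an interval that includes 0 (-0.30 to 0.75). Sums over the 2797 promoters with a value in all 8 tables moved in the same direction. Light fragments came to 7229 per M at 20 min, against 7122 in untreated cells, and heavy ones to 6753, against 7187.

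The remaining promoters of the 20 min tables changed by less than their counting error. CR2 had 19 light and 5 heavy fragments at 20 min, against 17 and 14 in untreated cells, a change of 0.95 (-0.70 to 3.31). PIK3CD, the catalytic PI3-kinase subunit of leukocytes, had 56 and 23, against 42 and 21 (-0.11, -1.26 to 0.98). LAPTM5, a lysosomal protein that promotes degradation of antigen receptors, had 65 and 26, against 64 and 29 (-0.23, -1.22 to 0.75), and PTPRC had 20 and 2, against 14 and 3 (0.44, -2.66 to 4.40). The 5 others were nearly empty in this window. MS4A1, the CD20 antigen, had 11 and 3 fragments, against 6 and 2 in untreated cells. The scaffold BLNK had 6 and 0, against 2 and 1, and PIK3AP1, an adaptor of PI3-kinase, had 2 and 1, against 1 and 3. CD81 had none, against 1 and 0, and RUNX3 had none in either condition.

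Between -200 and 0 bp the summed ratio of the signalling genes was higher at both times. Their 12 promoters together had 241 light and 74 heavy fragments at 60 min, against 199 and 86 in untreated cells, and the summed ratio was higher by 0.90 (0.35 to 1.45). At 40 min they had 228 light and 34 heavy fragments, and the ratio was higher by 0.93 (0.27 to 1.61). Without BANK1 these changes were 0.72 and 0.68. Over the 15 surface molecules the change was 0.19 at 60 min (-0.17 to 0.55) and 0.094 at 40 min (-0.33 to 0.52), and over the 4 promoters of PTPRC, PTPN6, PTPN22 and LAPTM5 it was 0.54 (-0.15 to 1.23) and -0.16 (-0.92 to 0.61). The intervals of the roles overlap at 60 min, and their difference was not tested. The change of the signalling genes depends on the window. Around each promoter's highest upstream signal, described below, it was 0.061 at 60 min (-0.26 to 0.38) and 0.32 at 40 min (-0.079 to 0.72), and over 2 kb it was 0.081 and 0.082, against 0.36 and 0.083 for the phosphatases and LAPTM5.

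Among the surface molecules, CD80, a costimulatory ligand of CD28, came nearest to a call at 60 min, with 52 light and 13 heavy fragments, against 46 and 18 in untreated cells, a change of 0.98 (-0.23 to 2.36). The receptor chain CD79A had 59 and 13, against 50 and 13 (0.50, -0.72 to 2.01), and its partner CD79B 21 and 10, against 25 and 12 (0.30, -1.22 to 2.08). CD38, an ectoenzyme that cleaves NAD, had the most fragments in the window of all 37 promoters, 121 and 41, against 91 and 30 (0.33, -0.48 to 1.20). Both receptor chains thus differed by less than their counting error. CD72, an inhibitory coreceptor, had 48 and 44, against 55 and 29 (-0.37, -1.34 to 0.55).

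The rest differed by less than their counting error as well. CD37, a tetraspanin, had 60 light and 25 heavy fragments at 60 min, against 68 and 25 in untreated cells (0.20, -0.79 to 1.25), and PIK3CD had 54 and 19, against 42 and 21 (0.82, -0.25 to 2.08). The kinase LYN had 6 and 3, against 10 and 2, the phospholipase PLCG2 3 and 3, against 3 and 1, the low-affinity IgE receptor FCER2 1 and 0, against 1 and 1, and the activation marker CD83 3 and 4, against 2 and 2. These 4 are too thinly covered in this window for a change of the size seen at DAPP1 to be detectable.

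Without the untreated tables, all 37 promoters could be compared between 60 and 40 min. The -1 ratio was higher at 60 min at 19 and lower at 16, against 43.9% and 49.5% of all promoters, and the summed ratio was higher by 0.28 (0.012 to 0.54), against -0.00099 over all promoters. Of the 25 promoters with 10 fragments, PTPN6, DAPP1 and BCL10 were called higher and SYK, BLK and MS4A1 lower, where 6.28% of all promoters were called higher and 7.68% lower. No interval excluded 0, where 1.68% and 2.5% did. Of the 5 promoters with no untreated pair, CD22, an inhibitory lectin, had 103 light and 26 heavy fragments at 60 min, against 93 and 14 at 40 min, with ratios of 1.37 and 1.17. BCL10, an adaptor of the NF-kB pathway, had 87 and 27, against 41 and 14 (1.10 and 0.022), the nucleotide exchange factor VAV1 43 and 11, against 32 and 9 (1.21 and 0.31), and the kinase BTK 55 and 26, against 51 and 19 (0.52 and -0.084). INPP5D, a lipid phosphatase, had 35 and 29, against 41 and 14 (-0.22 and 0.081). All 5 differed by less than their counting error, although BCL10 passed a log2 change of 1.

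Over the whole 2 kb, where each promoter had more fragments, changes were small. In untreated cells the median ratio of the 32 promoters was 0.23, against 0.068 over all promoters. At 60 min the change was above 0 at 21 of the 32, with a median of 0.086, against 50.9% and 0.0061 over all promoters. The summed ratio was higher by 0.11 (0.042 to 0.17), against 0.018. The other genes of the pathway, described below, had a summed change of 0.11 as well, so that this rise was not particular to the set. CD38, PTPN6 and PTPN22 were higher beyond counting error and MALT1 was lower, where 8.06% of all promoters were higher and 9.35% lower by that rule. At 40 min SYK alone was higher, where 5.9% of all were higher and 5.27% lower, and at 20 min LAPTM5 and RUNX3, of 12, where 10.5% and 9.5% were. Between 60 and 40 min PTPN6 and PTPN22 were higher and CD72 and CD81 lower, of 37, where 4.25% and 7.6% were. Most of these counts are near the background.

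PTPN22 stood out in this wider window. It had 376 light and 80 heavy fragments over 2 kb at 60 min, against 287 and 77 in untreated cells, although the heavy table is deeper at 60 min. The ratio was 1.47 at 60 min and 0.84 in untreated cells, a change of 0.63 (0.22 to 1.27) at the 99.2 percentile of all promoters. PTPN6, the phosphatase recruited by CD22 and CD72, had 608 and 319, against 532 and 274, with ratios of 0.39 and 0.028 and a change of 0.36 (0.086 to 0.68). CD38 had 580 and 241, against 449 and 186 (0.37, 0.065 to 0.74), and MALT1 344 and 206, against 339 and 109 (-0.42, -0.90 to -0.079). The 4 promoters of PTPRC, PTPN6, PTPN22 and LAPTM5 all had a higher ratio at 60 min, and their summed change was 0.36 (0.17 to 0.55).

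Downstream of the TSS, from 50 to 250 bp, few promoters differed. SYK had 45 light and 13 heavy fragments at 40 min, against 27 and 30 in untreated cells, a change of 1.20 (0.080 to 2.63), and 30 and 39 at 60 min. It was the only promoter of the set whose interval excluded 0 at 40 min, where 3.03% of all promoters were higher and 1.76% lower. At 60 min CD79A had 44 and 15, against 51 and 30 (1.05, 0.046 to 2.37), and CR2 13 and 7, against 2 and 8 (1.92, 0.41 to 6.81), where 2.85% were higher and 3.66% lower. Between 60 and 40 min CR2 and BLNK were higher, where 1.56% of all promoters were higher and 3.29% lower. Of the 6 genes called in the -1 window at 40 or 60 min, SYK was thus also higher in the +1 window at 40 min, and at BANK1, BLK, DAPP1, PTPN22 and CD53 the +1 interval included 0 at both times.

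The highest upstream signal of a promoter often lay outside -200 to 0 bp. Between -600 and -50 bp it was more than 200 bp upstream of the TSS in 28 of the 37 promoters, against 75.5% of all. That point was placed by the total signal, light and heavy, of the 40 and 60 min tables alone. A window of 70 bp to each side of it, added after the data were seen, gave values for promoters that were empty between -200 and 0 bp. Changes from untreated in this window are thus not independent of how it was placed, and the effect of that was not tested. Over the 32 promoters its summed ratio was higher by 0.17 at 60 min, with an interval that includes 0 (-0.0056 to 0.34). CD81, a tetraspanin of the B cell coreceptor complex, had its highest signal at -370 bp. It had 36 light and 40 heavy fragments there without HKST, 52 and 29 after 20 min, 55 and 11 after 40 min, and 26 and 44 after 60 min, with ratios of -1.01, -0.46, 0.78 and -1.18. The change was 1.79 at 40 min (0.66 to 3.15) and -0.17 at 60 min, so that the 40 min value stood apart from the others. At 60 min CD80 (0.69, 0.044 to 1.37), BLK (0.80, 0.027 to 1.63) and BANK1 (1.44, 0.066 to 3.25) were higher and SYK (-1.05, -2.20 to -0.072) was lower, where 3.44% of all promoters were higher and 4.32% lower. The BANK1 window, at -90 bp, lies inside -200 to 0 bp, so that its values reuse fragments already counted there. That of CD80, at -230 bp, overlaps the -1 window. At 40 min CD81 and BANK1 (2.20) were higher and MS4A1 (-1.42) was lower, where 3.09% and 2.88% were, and for MS4A1 the window stood at the far edge of the search, -600 bp, and may not hold a peak.

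The nucleosome-free region was taken as -100 to 50 bp, which overlaps the -1 window. It was read as the log2 ratio of total signal there over that of the whole 2 kb. In untreated cells its median was -1.67 over the 32 promoters, against -1.86 over all, and 15 of the 32 lay below -2, against 47.6%. No signal was recovered in the region at 7 promoters (PIK3AP1, CD81, SYK, PLCG2, CD83, PRKCB and RUNX3). Their values of -4.52 to -3.33 are set by the pseudocount and the signal of the 2 kb, so that their order was not measured. PTPRC (0.75) and CD53 (0.36) had more signal around the TSS than in the 2 kb as a whole, and BANK1 (-0.11) was next. The median was -1.22 for surface molecules, -2.78 for signalling genes and -1.15 for the phosphatases and LAPTM5. The median was -1.55 for 3 B cell markers (CD79A, CD79B and MS4A1, all among the 37), -0.40 for 10 T cell markers and 0.25 for 7 myeloid markers. The -1 ratio had a median of 0.53 in the 2 B cell markers with 10 fragments, 0.16 in 9 T cell and 0.51 in 7 myeloid markers, so that neither measure served to check the cell type.

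Sensitivity and the nucleosome-free region both went with base composition. The median GC content from -200 to 0 bp was 61% over all promoters, and 20 of the 37 were at or below it and 17 above. The -1 ratio in untreated cells had a median of 0.66 in the 13 AT-richer promoters with 10 fragments and of -0.010 in the 8 GC-richer ones, against 0.35 and -0.23 over all promoters of those classes. Over 2 kb the medians were 0.52 and 0.053, against 0.22 and -0.059. The nucleosome-free region had medians of -1.10 and -3.03, against -0.56 and -2.92. Within each class the promoters with an untreated value thus had a higher median ratio than promoters in general. The 60 min change of the -1 ratio was 0.33 in the AT-richer and 0.36 in the GC-richer class, against -0.022 and 0.11 over all promoters.

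The ratio over 2 kb and the GC content of the 2 kb had a Pearson's r of -0.81 across all 37 promoters at 60 min (Spearman's rho -0.76) and of -0.78 across the 32 in untreated cells (rho -0.71). Over all promoters r was -0.42 at 60 min and -0.59 in untreated cells. The points of each correlation come from the same 2 tables, and it is given as a description. PTPRC, with 31.45% GC over 2 kb, had the highest untreated ratio, 1.03, and CD81, with 69.6%, the lowest, -0.67. RUNX3 (71.15%) and VAV2 (77.0%), the highest in GC content, had ratios of -0.45 each.

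**Figure D3:**
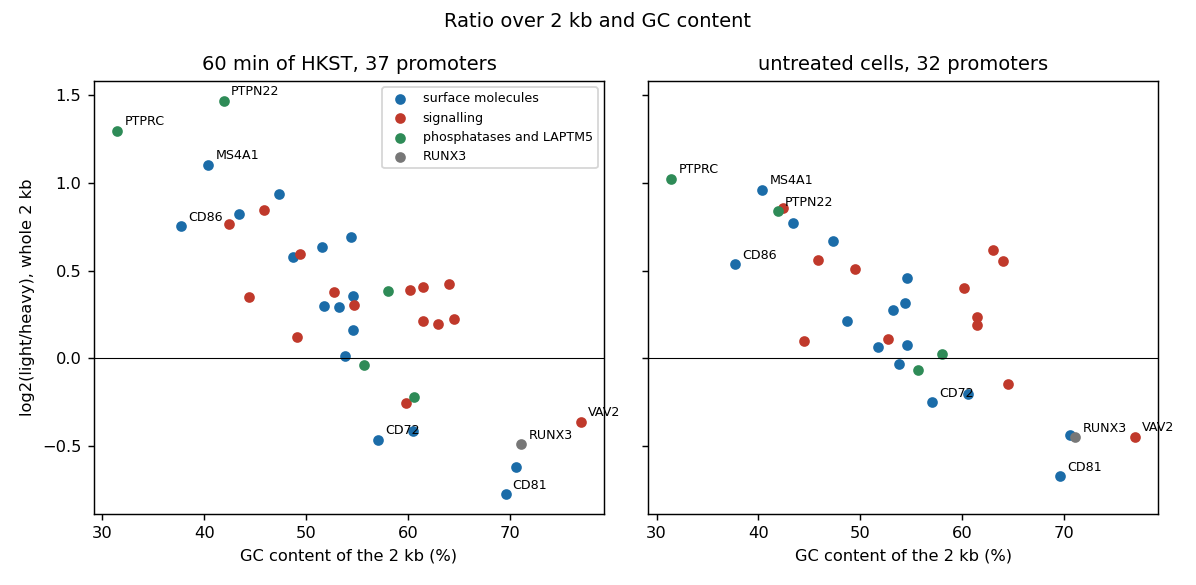
Log2 ratio of light over heavy over the whole 2 kb (y axis) against GC content of the 2 kb in percent (x axis), for all 37 promoters at 60 min of HKST (left) and the 32 with untreated tables (right), coloured by role. AT-rich promoters such as PTPRC and MS4A1 lie above 0 and GC-rich ones such as CD81, RUNX3 and VAV2 below it, and PTPN22 lies higher at 60 min, at 1.47, than in untreated cells, at 0.84.

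The average profile of the 16 AT-richer promoters in untreated cells had a sharp -1 peak. Total signal reached 4.38 rpm at -210 bp, dropped to 0.861 rpm at -70 bp and reached 3.60 rpm at 170 bp. Over the 7448 promoters of that class the lowest value was 1.88 rpm, at -90 bp, and the highest between -600 and 0 bp was 2.64 rpm. A mean over 16 promoters is more uneven than one over 7448, and its part in this difference was not tested. Light signal lay above heavy signal along most of the 2 kb, with 1.51 rpm of light and 1.06 rpm of heavy between -1000 and -200 bp. Over all promoters of that class light signal was higher there as well, at 1.35 against 1.14 rpm. In the 16 GC-richer promoters the highest upstream value was 3.19 rpm, at -390 bp, and signal was lowest, 0.210 rpm, at -10 bp. There light and heavy signal were 1.18 and 1.14 rpm between -1000 and -200 bp, against 1.29 and 1.30 rpm over all promoters of that class.

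**Figure D4:**
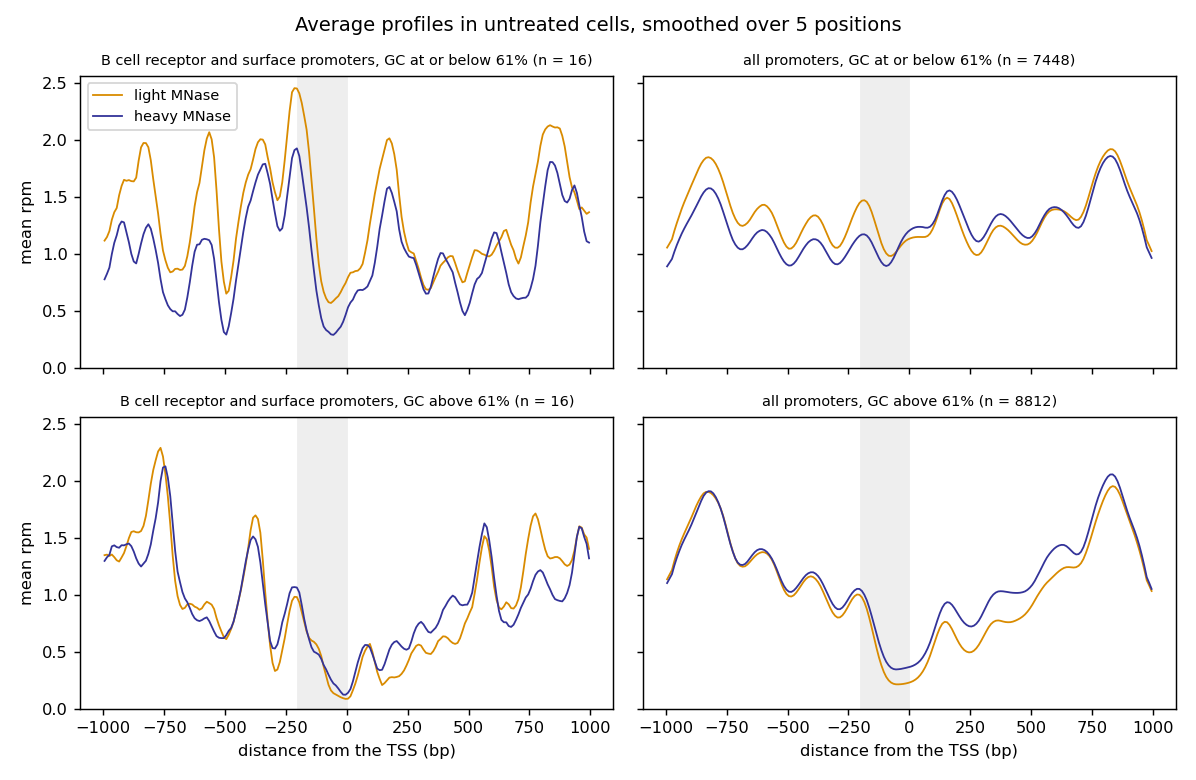
Mean light (orange) and heavy (blue) signal in rpm (y axis) by distance from the TSS in bp (x axis) in untreated cells, for the B cell receptor and surface promoters (left) and all promoters (right) at or below (top) and above (bottom) the median GC content of 61%. Grey marks -200 to 0 bp. The mean of the AT-richer promoters at the top left is highest upstream near -210 bp, with light signal above heavy signal along most of the region.

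The other genes of the pathway, such as the PI3-kinase and Ras genes and the calcineurin and NFAT genes, were read as a list of 43 promoters, 32 of them with an untreated pair. Their nucleosome-free regions were deeper, with a median of -3.40, and 10 of the 32 had 10 fragments in the -1 window in untreated cells, with a median ratio of 0.51. At 60 min 15 of the 32 were above 0 and 12 below, and the summed ratio changed by -0.013 (-0.39 to 0.36). Of the 10 with 10 fragments in both conditions, MAP3K7 was called higher and none lower, near the 8.45% and 4.79% of all promoters. MAP3K7, the kinase TAK1 upstream of NF-kB, had 90 light and 9 heavy fragments at 60 min, against 76 and 18 in untreated cells, a change of 1.45 (0.32 to 3.07). RASGRP3, a Ras activator, was called lower at 40 min, with 34 and 13, against 46 and 11 (-1.16, -2.76 to 0.19). PPP3CB, a calcineurin subunit, was called lower at 20 min, with 13 and 4, against 18 and 1 (-1.46, -8.59 to 0.72). MAPK3, a MAP kinase, was called higher at 60 against 40 min, with 24 and 14, against 18 and 13 (1.11, -0.25 to 2.87). Of all promoters, 5.9% were called lower at 40 min, 6.12% lower at 20 min and 6.28% higher at 60 against 40 min. At 20 min 2 promoters of this list had 10 fragments. Over 2 kb, 23 of the 32 were above 0 at 60 min, with a summed change of 0.11 (0.040 to 0.18).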

How the data were processed

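Nuclei of GM12878 cells were digested with MNase, mononucleosomal DNA was enriched by capture of 2 kb around TSSs, and paired-end reads were aligned to hg19. The submitters' notes list Bowtie2 2.2.2, SAMtools and bedtools. The deposited values are a signal: the authors counted centers of fragments of 140 to 200 bp in 60 bp windows at steps of 10 bp, scaled them per 1000000 fragments and pooled both replicates. All 313578 to 2609599 low values per table were whole steps of 0.5 fragment within a tolerance of 0.05, which gave the fragment numbers and depths.

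The log2 ratio of light over heavy was taken per window after a pseudocount of 0.119 rpm (0.1 of the mean value). A promoter entered the counts of calls with at least 10 fragments, light and heavy together, in both conditions. With 1 pooled value per group no test was made: a call is a log2 change of 1 or more, and exact 95% intervals (Clopper-Pearson for ratios, conditional odds ratios for changes) cover counting error only, since PCR reads carry no molecular identifiers. All HKST times are set against the same untreated tables. The promoters and lists were chosen with earlier results of these data known. Values were given in full for promoters in the 20 min tables, those whose counting interval excluded 0 at 40 or 60 min, the 3 highest and 3 lowest in untreated -1 ratio and in the nucleosome-free region, and, of the other pathway genes, up to 2 calls per direction and time. Other promoters named were chosen after their values were seen. Pseudocount, window, centring and filters were varied. Sequences were read from GRCh37 and TSSs compared with GENCODE 44 lifted to it. Scripts used Python 3.11.15 with scipy 1.17.1 and were tested on simulated data.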

Additional observations from a re-analysis of the deposited data

Results flagged for a closer look

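Ratios at 60 min and at 40 min of HKST, compared without the untreated tables, differed beyond counting error at 6 promoters in a window other than -200 to 0 bp. The difference was not tested over replicates, since each table pools them. From 50 to 250 bp the log2 ratio was higher at 60 than at 40 min by 1.91 at CR2, with 13 light and 7 heavy fragments at 60 min, against 6 and 9 at 40 min, and by 2.00 at BLNK, with 47 and 4, against 28 and 7. Of all promoters 1.56% were higher and 3.29% lower by this rule.

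Over 2 kb the ratio was higher at 60 min by 0.77 at PTPN22 and by 0.33 at PTPN6. The difference was -0.28 at CD72 and -0.42 at CD81. Of all promoters 4.25% were higher and 7.6% lower by this rule.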

How the results depend on the processing

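No paired analysis was possible because each table pools both replicates, and for the same reason no replicate could be left out. Of the values of the main comparisons under other settings, 76 counted as close to their value as reported and 22 moved. A median counted as close where it moved by less than the counting error of the summed ratio. The 76 include those for 1 promoter per gene, which could not differ, since each gene had 1 promoter. They also include a median 60 min change of 0.12 around the highest upstream signal and 0.086 over 2 kb, against 0.33. At 20 min the median was 0.031 around that signal, against 0.44. With a pseudocount of 0.5 of the mean value, the promoters higher by a log2 change of 1 numbered 0 at 20 min, 1 at 40 min and 0 at 60 min, and those lower 0 at 40 min and 0 at 60 min. With a window from -250 to -100 bp, 1 was higher and 1 lower at 20 min, 5 were higher and 2 lower at 40 min, and the untreated median was 0.11. Centred on the median of all promoters, 1 was higher at 20 min. Without the filter, 7 were higher and 2 lower at 40 min, and the untreated median was 0.18. With a filter of 20 fragments, the median change at 20 min was -0.11 and 1 was higher. Around the highest upstream signal, 2 were lower at 40 min. Over 2 kb, 0 were higher at 20 min, 0 higher and 0 lower at 40 min, and 0 higher and 0 lower at 60 min, and the change of CD53 at 60 min was 0.051, of the opposite sign. The last 2 windows were chosen after seeing the data, and the cause of these shifts was not tested. The 3.27 M fragments (M for 1000000) of the 40 min heavy table limit every 40 min ratio.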
